A study of Mus musculus with 447 samples.

Results

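Cck, Cartpt, Gal and Gip are 4 of the 40824 genes counted in single cells of the fetal mouse pancreas. They encode secreted peptides of the gut and brain, and were picked by name, with earlier results on these cells in view, because each was read in cells that also held much Gcg, the glucagon transcript. Their distributions are therefore given as a description and no test is made on them. The data were 447 single cells from E15.5 fetal pancreas, sequenced by Smart-seq3, a plate method that reads polyadenylated RNA of 1 sorted cell per well. The genotype labels were Pdx1CreNeurod1OE (Neurod1OE below) and Pdx1CreNgn3KONeurod1OE (Ngn3KO below). According to the series' design text, both carried a Pdx1CreER driver, a Cre recombinase active in pancreatic progenitors once induced, and Cre-dependent Neurod1 overexpression, and GFP-positive cells were collected. The Ngn3KO cells carried floxed Ngn3 (the gene Neurog3) in addition, so that all cells share the Neurod1 transgene and neither genotype is a wild type. Titles fall into sets 2 and 3, which held 212 Neurod1OE cells, 95 of them in set 3, and 235 Ngn3KO cells, 30 of them in set 3.

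No label names an animal, so each genotype within a set counts as 1 sample, cells are not replicates, and no p-value between genotypes was computed. Beside each share of cells stands its 95% Clopper-Pearson interval, an exact binomial interval that covers counting error only. A glucagon cell was defined as a cell with at least 1000 CPM of Gcg, CPM being reads scaled to 1000000 per cell or per sum of cells. The 348 glucagon cells were 96.6% of the Neurod1OE and 98.5% of the Ngn3KO cells in set 2, but 32 of 95 and 1 of 30 in set 3. A cell was called positive for a peptide at 100 CPM or more, which is 34.4 reads in an Ngn3KO cell and 57.3 reads in a Neurod1OE cell of median depth in set 2.

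Peptide hormones are made as long precursors, cut and amidated in secretory granules, and released by regulated exocytosis. In the adult, cholecystokinin (Cck) comes from intestinal I cells and from neurons, and gastric inhibitory polypeptide (Gip), an incretin that raises insulin secretion after a meal, comes from intestinal K cells. Galanin (Gal) and the cocaine- and amphetamine-regulated transcript (Cartpt) are neuropeptides of brain, autonomic nerves and some endocrine cells. The proteins NeuroD1 and Neurog3 belong to the basic helix-loop-helix class of transcription factors, act in islet and gut endocrine cells and bind E-boxes, short sequences of the form CANNTG.

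On the mm10 assembly (GRCm38, GENCODE M21 annotation), Cck spans bases 121489824 to 121495694 of chromosome 9, Cartpt bases 99898489 to 99901091 of chromosome 13 and Gal bases 3409915 to 3414544 of chromosome 19, each on the minus strand. Gip spans bases 96024545 to 96030831 of chromosome 11 on the plus strand. No other annotated gene overlaps any of them. Their combined exons hold 1305 bases in Cck, 1277 in Cartpt, 788 in Gal and 687 in Gip.

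The 250 bases before the RefSeq start (GRCm38.p6) are shown for the 2 intestinal hormones. Both hold E-boxes, the letters that the overexpressed factor is known to read. Cartpt holds 1 as well, but its window is not shown, since its RefSeq start lies inside its first GENCODE M21 exon. By that annotation part of the Cartpt window is exon. Capitals mark CANNTG, searched on both strands. The Cck sequence is chr9:121495695-121495944, minus strand, and the Gip sequence is chr11:96024295-96024544, plus strand.
Cck: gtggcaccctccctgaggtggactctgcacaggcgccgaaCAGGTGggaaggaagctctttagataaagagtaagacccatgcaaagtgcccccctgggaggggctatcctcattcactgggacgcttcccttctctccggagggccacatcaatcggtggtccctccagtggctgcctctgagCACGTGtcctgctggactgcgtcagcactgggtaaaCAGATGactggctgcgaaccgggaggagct
Gip: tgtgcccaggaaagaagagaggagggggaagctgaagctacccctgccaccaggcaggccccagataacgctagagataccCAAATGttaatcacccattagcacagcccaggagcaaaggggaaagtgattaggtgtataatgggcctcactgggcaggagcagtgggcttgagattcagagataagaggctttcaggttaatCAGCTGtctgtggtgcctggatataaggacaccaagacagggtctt
Cck had 3 matches to CANNTG, Gip 2, Cartpt 1 and Gal 0 in the same window, and all 4 genes were found in the RefSeq table. The form CAGATG, contained in CANNTG, occurred once in Cck and once in Cartpt, and CAGCTG, likewise contained in it, once in Gip. CANNTG stood in 66.2% of all 32851 promoters of the table, CAGATG in 14.4% and CAGCTG in 13%. The cyclic-AMP element TGACGTCA, which does not overlap these, was present in Cartpt alone among the 4 genes and in 1.55% of all promoters. These are letter matches in a window, and the deposited counts do not measure binding there.

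Facts of the series that touch the results below are these. Cell totals ran from 25769 to 2788066 reads, and the group medians from 344128 (Ngn3KO, set 2) to 728074 (Ngn3KO, set 3). Neurod1 stood at 332 and 292 CPM in Neurod1OE and Ngn3KO cells of set 2, and at 217 and 30.4 CPM in set 3, so the set 3 library labelled Ngn3KO was low in the gene it is labelled to overexpress. Neurog3 was near its floor under both labels of set 2 (3.89 and 3.06 CPM), and the deleted bases of the floxed allele are not given, so its reads do not check the deletion. Of the 30 set 3 cells labelled Ngn3KO, 29 were acinar by Cpa1, the carboxypeptidase of digestive enzyme cells (at least 1000 CPM, with Gcg below 1000 CPM), against 15 of 95 Neurod1OE cells. Genotype and acinar content therefore cannot be told apart in set 3. Glucagon cells of set 2 and of Neurod1OE set 3 held the alpha-cell markers Gcg, Irx1, Irx2, Pou3f4, Ttr and Slc38a5 at 10 CPM or more. The predicted gene Gm12338 splits set 2 into cells with at least 10 CPM, called Gm12338-positive, and cells below it (66 Neurod1OE and 97 Ngn3KO cells). In Neurod1OE that split follows the title numbers, with the first 51 positive and the later ones negative, and the sex called from sex-linked genes, 48 male and 0 female against 0 male and 64 female cells. In Ngn3KO no cell of either class was called male. No label says what the classes stand for.

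**Figure D1:**
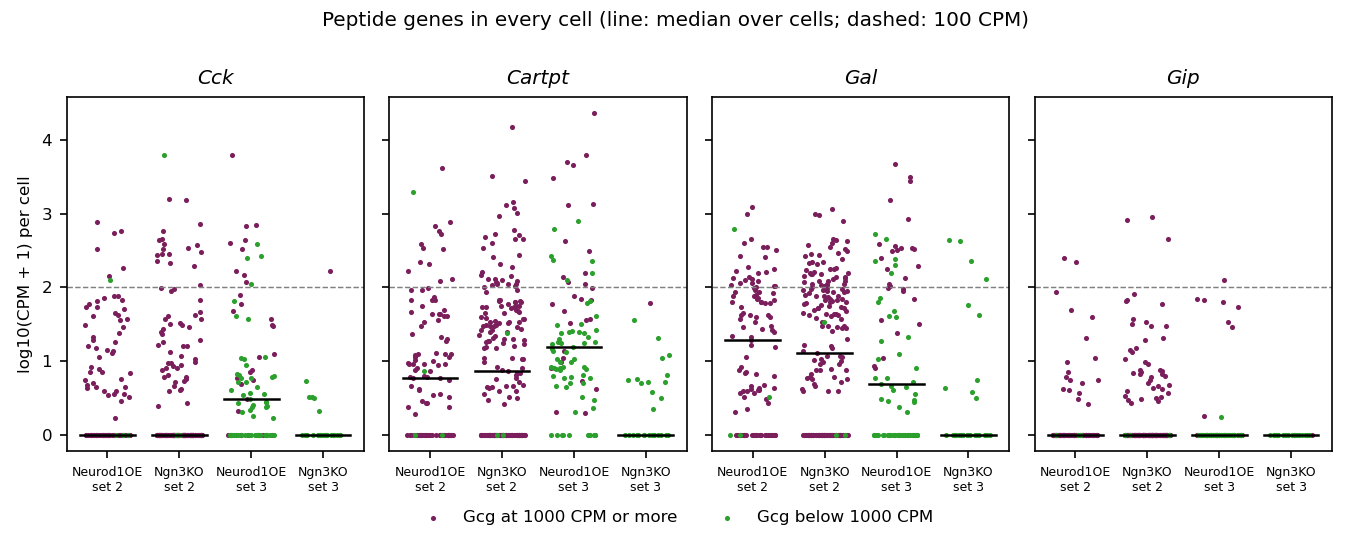
Level of each peptide gene in every cell, as log10(CPM + 1), by genotype and title set; each point is 1 of 447 cells, purple with Gcg at 1000 CPM or more and green below it, black lines are medians over cells and the dashed line is 100 CPM. Most cells sit at or near 0 for Cck and Gip, and the highest cells reach 6253 CPM for Cck and 23035 CPM for Cartpt.

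Galanin was the member that most glucagon cells shared. In set 2 it ranged from 0 to 1218 CPM in Neurod1OE glucagon cells (median 20.1) and from 0 to 1147 CPM in Ngn3KO glucagon cells (median 12.4). In set 3 the Neurod1OE glucagon cells ranged from 0 to 4649 CPM with a median of 120.5. The ranges overlap throughout, and the set 3 median lies above those of set 2. Galanin-positive cells were 24 in Neurod1OE of set 2 (21.2%, interval 14.1 to 29.9), 47 in Ngn3KO of set 2 (23.3%, 17.6 to 29.7) and 18 of 32 in Neurod1OE of set 3 (56.2%, 37.7 to 73.6), and groups are given in that order below. The positive cells themselves were mostly modest: their median was 162.9, 175.2 and 332 CPM. Only 1, 2 and 4 cells passed 1000 CPM.

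Cartpt was positive in fewer cells and reached the highest single values. It ranged from 0 to 4107 CPM (median 4.92) in Neurod1OE glucagon cells of set 2, from 0 to 15032 CPM (median 6.60) in Ngn3KO ones, and from 0 to 23035 CPM (median 67.6) in Neurod1OE ones of set 3. Positive cells were 13 (11.5%, 6.27 to 18.9), 34 (16.8%, 11.9 to 22.7) and 13 of 32 (40.6%, 23.7 to 59.4). At 1000 CPM or more Cartpt stood in 2 Neurod1OE and 7 Ngn3KO cells of set 2 and in 7 Neurod1OE cells of set 3, counted over all cells. One Ngn3KO cell held 15032 CPM of Cartpt beside 97961 CPM of Gcg, 1000 CPM of Gal and 575 CPM of Cck. That 1 cell gave 58.7% of all Cartpt reads of its group. In set 3 the Neurod1OE cell numbered 38 held 23035 CPM of Cartpt, 10241 of Gcg and 3094 of Gal, in a shallow library of 86609 reads.

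Cck was absent from the median glucagon cell of set 2. It ranged from 0 to 776 CPM in Neurod1OE and from 0 to 1555 CPM in Ngn3KO glucagon cells (median 0 in both), and from 0 to 6253 CPM in Neurod1OE glucagon cells of set 3 (median 11). Positive cells were 6 (5.31%, 1.97 to 11.2), 18 (8.91%, 5.37 to 13.7) and 9 of 32 (28.1%, 13.7 to 46.7). A read of Cck was found in 46%, 30.7% and 75% of all glucagon cells, and in 38.4%, 29.2% and 59.3% after thinning each cell to 165298 reads (1, 31 and 5 shallower cells left out). Both cells with the most Cck had little Gcg. In Ngn3KO of set 2 this cell held 6140.2 CPM of Cck with 747 CPM of Gcg, just under the limit used here, and 9015 CPM of Pyy, the peptide YY gene of gut and early islet cells. The Neurod1OE cell numbered 93 in set 3 held 6253 CPM of Cck with 2535 CPM of Gcg and 3512 CPM of Iapp, the amylin gene of beta cells.

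Gip was read in a few cells. In the same order of groups its glucagon cells had a median of 0 CPM and a highest value of 248, 892 and 125.5 CPM. It was positive in 2 (1.77%, 0.215 to 6.25), 3 (1.49%, 0.307 to 4.28) and 1 of 32 cells (3.12%, 0.0791 to 16.2). All 6 positive cells are therefore given singly. The 3 Ngn3KO cells had 892, 829.9 and 454 CPM of Gip and no Gal above 14 CPM, no Cck, and 5830.2, 1019 and 5164 CPM of Ppy, the pancreatic polypeptide gene. The one with 829.9 CPM of Gip held 147505 CPM of insulin (Ins1 and Ins2 summed) against 1556 CPM of Gcg, and gave 70.9% of the group's Gip reads. The 2 Neurod1OE cells of set 2 had 248 CPM of Gip with 76027 CPM of Gcg, and 220.4 CPM of Gip with 49097 of Gcg, 542 of Cck, 120.7 of Cartpt and 3279 of Ghrl, the ghrelin gene. The set 3 cell, at 125.5 CPM, was positive for all 4 peptides, with 700.0 CPM of Cck, 6249 of Cartpt and 856 of Gal.

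With each cell scaled to CPM, the level of Cck and Cartpt was more concentrated in the top cells than that of Gal in each group. Gip was so in set 2. The top 10% of glucagon cells gave 80.4%, 91.9% and 80% of the added per-cell CPM of Cck in the 3 groups. For Cartpt they gave 84.2%, 88.3% and 74.1%, for Gal 57.7%, 56.7% and 62.9%, and for Gip 97%, 96.6% and 59.4%. In plain reads this did not hold for Cartpt in Neurod1OE of set 3. Most Cartpt reads there came from 3 cells and most Gal reads from 2. The median measured gene had 41.4%, 44.1% and 34.6% there, and Gcg itself 22.8%, 22.2% and 22.3%. Ghrl stood at 92.3% and 90.8% in set 2, while Pyy lay at the level of the median gene (43.5% and 44%).

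Between genes, levels were compared per kilobase of exon, in CPM per kb of the summed glucagon cells. In Neurod1OE cells of set 2 the order was Gal (84.4), Cartpt (66.6), Cck (24.9) and Gip (14.2). In Ngn3KO cells of set 2 Cartpt led (155.1) before Gal (97), Cck (36.1) and Gip (28.7), and the Cartpt value there rests mainly on the cell with 15032 CPM. In Neurod1OE cells of set 3 Cartpt (699) and Gal (619.9) stood above Cck (235) and Gip (20.9). With each cell given equal weight Gal stayed ahead in Neurod1OE of set 2 (96.8 against 68.6 for Cartpt) and Cartpt in the other groups (138.5 against 99.7, and 1135 against 664). Those Cartpt means still include the cells with 15032 and 23035 CPM, and the order without them was not computed. In Ngn3KO the median over glucagon cells was lower for Cartpt (6.60 CPM) than for Gal (12.4 CPM).

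The design asks whether overexpressed Neurod1 acts alike when Neurog3 is deleted, and for the 4 peptides set 2 is the set with glucagon cells under both labels. Over all set 2 cells, the Ngn3KO sum over the Neurod1OE sum was 1.61 on the log2(CPM + 1) scale for Cck (102.5 against 32.9 CPM), 1.17 for Cartpt (193.8 against 85.4), 0.20 for Gal (75 against 65.2) and 0.96 for Gip (19.3 against 9.41). Cck and Cartpt were thus past 2-fold higher, as were 0.859% of the 10010 measured genes, and none of the 4 was past 2-fold lower, as 1.67% were. Those values rest on single cells: without the top cell of each genotype they were 0.84, 0.75, 0.16 and 0.33, and none was past 2-fold. Within glucagon cells the values were 0.52 for Cck, 1.21 for Cartpt, 0.20 for Gal and 0.95 for Gip, and only Cartpt was past 2-fold (0.838% of 10022 genes were higher and 1.72% lower). Without the top cell of each genotype Cartpt stood at 0.83 there, and so was no longer past 2-fold. The Cck sum stayed higher in Ngn3KO there (47.1 against 32.5 CPM) but short of 2-fold, because the cell with 6140.2 CPM of Cck falls under the Gcg limit. Sex also differed between the genotypes of set 2, with 48 male and 64 female Neurod1OE cells and no Ngn3KO cell called male. The part of sex in these genotype values was not tested. The intervals of the positive shares given above overlap between the genotypes for each of the 4 genes, but they cover counting error in 1 sample each and test no difference between genotypes.

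In set 3 all 4 genes were lower under the Ngn3KO label, where 29 of 30 cells were acinar. The log2 values were −3.93 for Cck (6.39 against 111.3 CPM), −5.78 for Cartpt (4.76 against 315) and −2.23 for Gal (38.8 against 185.8). Of 10478 measured genes 31.8% were past 2-fold lower and 5.96% higher, and the median gene stood at −0.57, so a value past 2-fold lower was common in that comparison. Gip had 0 reads in the 30 Ngn3KO cells, against 4.75 CPM in Neurod1OE, and missed the limit for measured genes in this comparison. The exact 95% Poisson interval of the 0 reads, which covers counting error only, reaches 0.167 CPM. Of the 337 Gip reads of Neurod1OE, 336 lay in glucagon cells, and Ngn3KO held 1 such cell. The 1 Ngn3KO glucagon cell of set 3 held 168.2 CPM of Cck, 60.3 of Cartpt and no read of Gal or Gip. How far the lower values follow the acinar makeup of that library, rather than its genotype label, cannot be told apart.

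**Figure D2:**
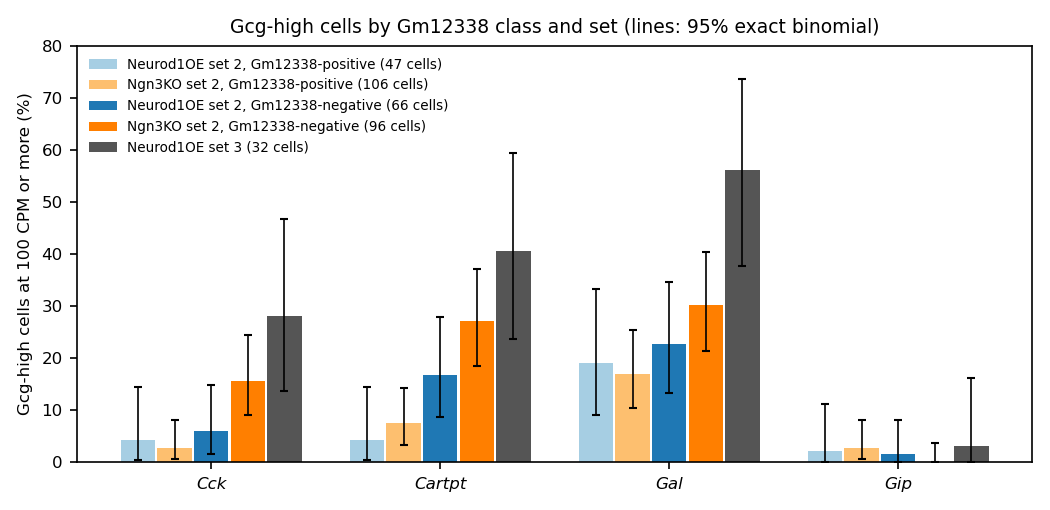
Share of glucagon cells (Gcg at 1000 CPM or more) with at least 100 CPM of each peptide gene, by Gm12338 class and genotype in set 2 and for Neurod1OE in set 3; bars are shares and black lines 95% exact binomial intervals, with the number of cells in the key. For Cck, Cartpt and Gal the bars of the Gm12338-negative classes are higher than those of the Gm12338-positive class of the same genotype, and set 3 is highest; Gip is low throughout.

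Within set 2, Cck and Cartpt differed more between the Gm12338 classes than between the genotypes. In Ngn3KO glucagon cells the Gm12338-negative sum over the positive sum was 3.14 for Cck (94.2 against 9.79 CPM), 3.48 for Cartpt (404 against 35.4) and 1.11 for Gal (109.6 against 50.2), on the log2(CPM + 1) scale. Gip went the other way, at −2.49 (4.80 against 31.5 CPM). In that contrast 4.80% of 10030 genes were past 2-fold higher and 6.66% lower. Without the top cell of each class Cck, Cartpt and Gal stood at 3.24, 2.39 and 1.12 and Gip at −0.74. The share of positive cells was also higher in the negative class, at 15 of 96 (15.6%) against 2.83% for Cck, 26 of 96 against 7.55% for Cartpt and 29 of 96 against 17% for Gal. In Neurod1OE glucagon cells the same contrast gave 2.38 for Cck and 2.97 for Cartpt but 0.01 for Gal and −0.65 for Gip, with 7.31% of 10313 genes higher and 7.23% lower. Without the top cells these were 2.37, 2.46, 0.02 and 0.75, so Gip changed sign. There the classes also differ in sex, whereas no Ngn3KO cell of set 2 was called male. Under both labels the classes also differ in title number. The part of sex, animal, plate and title number in these differences was not tested.

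The genotype values also differed from class to class. Among Gm12338-positive glucagon cells the Ngn3KO over Neurod1OE value was 0.02 for Cck, 0.93 for Cartpt, −0.39 for Gal and 1.30 for Gip, with 3.56% of 10153 genes past 2-fold higher and 4.83% lower. Cck missed the limit for measured genes in that class. Among Gm12338-negative ones it was 0.78, 1.43, 0.71 and −0.54, with 1.36% of 9950 genes higher and 3.5% lower, and Gip was not measured there. Cartpt was past 2-fold higher in the negative class (1.43) and short of it in the positive class (0.93). Without the top cells Cartpt stood at 1.02 in the positive and 0.96 in the negative class, so the class past 2-fold changed. In the positive class all Neurod1OE cells with a called sex were male and all such Ngn3KO cells female. Genotype and sex therefore cannot be told apart in that class. In the negative class all cells with a called sex were female under both labels.

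Among Neurod1OE glucagon cells, Cck, Cartpt and Gal stood higher in set 3 than in set 2. The set 3 sum over the set 2 sum was 3.20 for Cck (307 against 32.5 CPM), 3.38 for Cartpt (893 against 85.1) and 2.86 for Gal (488 against 66.5), and 0.52 for Gip (14.4 against 9.75). Of 10391 genes, 7.01% were past 2-fold higher in set 3 and 8.28% lower. Without the top cell of each set the values were 2.32, 3.79, 2.58 and 0.91. Of the 32 set 3 glucagon cells 26 were called male and 5 female, with Gal positive in 17 of 26 against 0 of 5, Cartpt in 11 of 26 against 1 of 5 and Cck in 8 of 26 against 0 of 5. Depth also differed, with a median of 695079 reads per Neurod1OE cell in set 3 and 572744 in set 2. Thinned to equal depth, the shares stayed within the intervals of the unthinned ones.

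**Figure D3:**
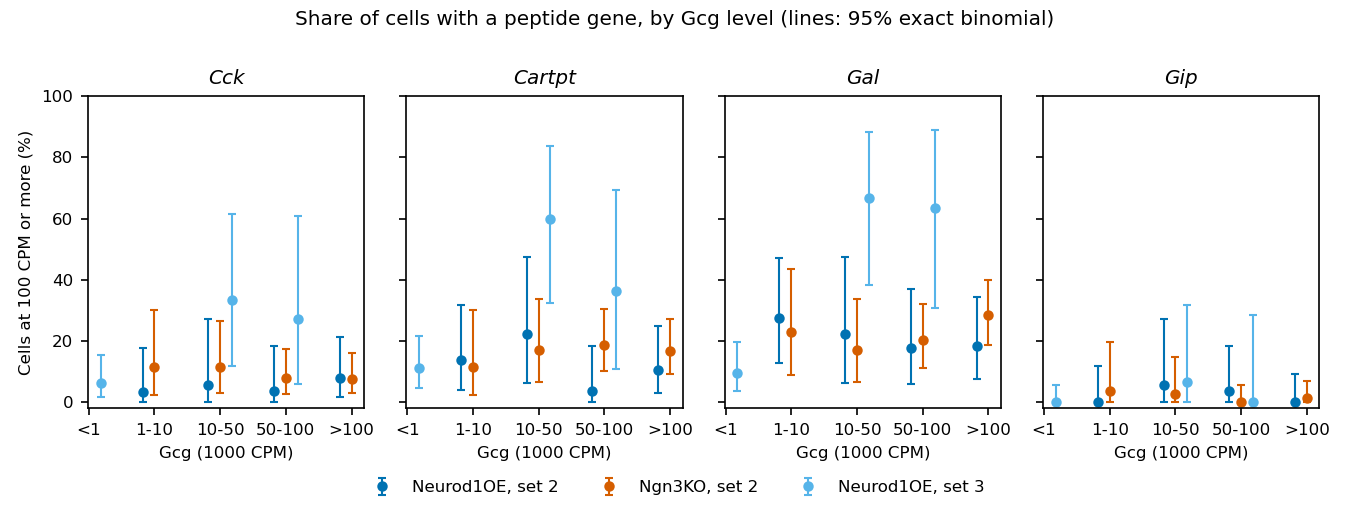
Share of cells with at least 100 CPM of each peptide gene against the Gcg level of the cell in units of 1000 CPM, for Neurod1OE and Ngn3KO of set 2 and Neurod1OE of set 3; points are shares, vertical lines 95% exact binomial intervals, and bins with fewer than 10 cells are left out. In set 2 the intervals of all bins overlap within each genotype, for example 27.6% to 18.4% for Gal in Neurod1OE and 23.1% to 28.6% in Ngn3KO from the lowest to the highest glucagon bin.

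No steady relation to the Gcg level was seen among the glucagon cells of set 2. From cells with 1000 to 10000 CPM of Gcg to cells with 100000 or more, the share positive for Gal was 27.6% and 18.4% in Neurod1OE, and 23.1% and 28.6% in Ngn3KO. For Cartpt it was 13.8% and 10.5% in Neurod1OE and 11.5% and 16.9% in Ngn3KO. For Cck it was 3.45% and 7.89%, and 11.5% and 7.79%. Each pair of intervals overlaps. Across glucagon cells, Pearson's r of log2(CPM + 1) with Gcg lay between −0.25 and 0.17 for the 4 genes in the 3 groups (347 cells together, which within a group share library and depth), given as a description. In set 3 the contrast was between cells above and below the glucagon limit: Gal was positive in 18 of 32 glucagon cells against 6 of 63 others, Cartpt in 13 against 7 and Cck in 9 against 4.

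**Figure D4:**
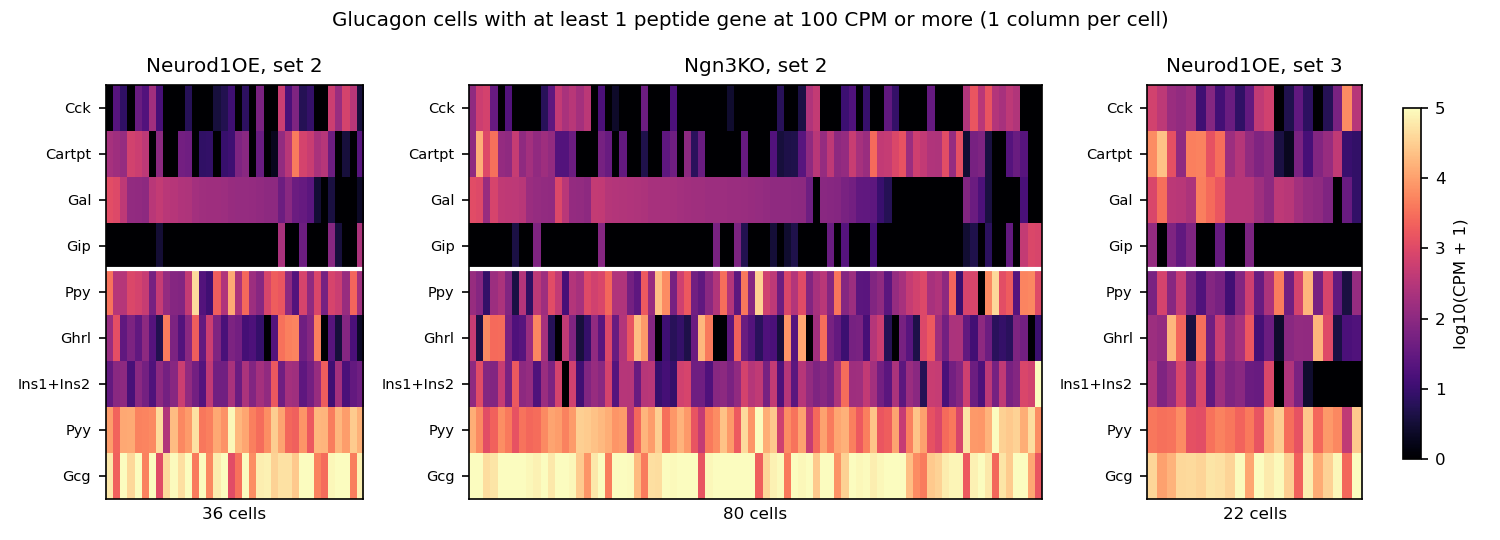
Glucagon cells with at least 1 of the 4 peptide genes at 100 CPM or more, 1 column per cell (36, 80 and 22 cells), coloured by log10(CPM + 1) with the scale capped at 5; rows above the white line are the peptide genes, rows below it Ppy, Ghrl, insulin, Pyy and Gcg, and cells are sorted by which peptides are positive. Bright Cartpt columns overlap the Gal block most in set 3, where 11 of 13 Cartpt-positive cells were also positive for Gal.

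Cartpt-positive cells held Gal more often than Cartpt-negative cells did in each group. Of the Cartpt-positive glucagon cells 6 of 13 (46.2%) were also Gal-positive in Neurod1OE of set 2, against 18% of the Cartpt-negative ones. In Ngn3KO these were 12 of 34 (35.3%) against 20.8%, and in Neurod1OE of set 3 11 of 13 (84.6%) against 36.8%. As a share of the Gal-positive cells the overlap was 25%, 25.5% and 61.1%. Cck-positive cells held Gal in 1 of 6, 8 of 18 and 7 of 9 cells, and Cartpt in 1 of 6, 5 of 18 and 5 of 9. The overlap with Gal was below that of Cck-negative cells in Neurod1OE of set 2 (16.7% against 21.5%) and above it in the other groups (44.4% against 21.2%, and 77.8% against 47.8%).

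At least 1 peptide was positive in 36 (31.9%), 80 (39.6%) and 22 (68.8%) glucagon cells, and at least 2 in 8 (7.08%), 19 (9.41%) and 13 (40.6%). All 4 were positive together in the 1 set 3 cell described above. Every one of the 19 Ngn3KO cells with 2 or more was Gm12338-negative (19 of 96). In the Gm12338-positive class 0 cells had 2 or more, with an interval that reaches 3.42%. In that positive class Gal was found in 0 of 8 Cartpt-positive cells, while in the negative class it was found in 12 of 26 (46.2%) against 24.3% of the rest. In Neurod1OE 7 of the 8 cells were Gm12338-negative. This holds at 100 CPM and not at 10 CPM, where 25 Gm12338-positive Ngn3KO cells (23.6%) held 2 or more peptides, against 53 of the negative class (55.2%).

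Ghrelin was found more often in Cartpt-positive than in Cartpt-negative cells. Ghrl at 1000 CPM or more stood in 5 of 13 (38.5%) Cartpt-positive glucagon cells against 4.00% of the others in Neurod1OE of set 2, in 6 of 34 (17.6%) against 10.1% in Ngn3KO and in 5 of 13 (38.5%) against 10.5% in Neurod1OE of set 3. With Gal it stood in 12.5% against 6.74%, 25.5% against 7.10% and 27.8% against 14.3%. Ppy went the other way with Cartpt, in 15.4% against 24%, 8.82% against 28% and 0% against 26.3% of cells at 1000 CPM. In Ngn3KO the Gm12338 classes differ in both genes, with 41 of 50 Ppy-high cells in the positive class and 26 of 34 Cartpt-positive cells in the negative class. Inside the negative class Ppy stood in 7.69% against 10%, and inside the positive class in 12.5% against 40.8%. In set 3 the Gal-positive cells had less Iapp (median 129.4 against 2653 CPM) and less Pyy (3438 against 9761 CPM) than the Gal-negative ones, but more insulin (81.6 against 0 CPM). Their median depth was near equal, at 788026 and 777269.5 reads.

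The sum of neuronal markers did not follow the peptides. The 9 markers used summed to 361, 462 and 310.2 CPM in glucagon cells of the 3 groups. Snap25 alone gave 264.8, 359.4 and 177.1 CPM of this, and Ret and Elavl4 gave most of the rest. Elavl3 stood at 3.62, 1.55 and 1.03 CPM and Stmn2 at 0.398, 0.398 and 9.67 CPM, so the sums say little about them. Between positive and negative cells the sums were 384 against 355 CPM for Gal, 255 against 372 for Cartpt and 442 against 356 for Cck in Neurod1OE of set 2. They were 440.4 against 469, 396 against 472 and 439 against 463 in Ngn3KO, and 291 against 337, 287 against 324 and 276 against 324 in set 3. The 4 enterochromaffin markers (Tph1, Lmx1a, Slc18a1 and Tac1), which mark serotonin cells of the gut, summed to between 19.5 and 47.7 CPM, with 1 of 4 at 10 CPM or more in each group. Beta-cell markers summed to less in positive than in negative cells for Gal, Cartpt and Cck in Ngn3KO (3546 against 10631, 3120.0 against 9789 and 3486 against 9309.7 CPM). The same held in Neurod1OE of set 3 and, for Cartpt and Cck, of set 2, whereas Gal there had 4009 against 3670.0 CPM. They summed to 162481 CPM in the 3 Gip-positive cells of Ngn3KO, 1 of which holds most of the insulin reads. That cell was negative for Gal, Cartpt and Cck and so raises each negative sum of Ngn3KO. The list summed to 8847 CPM in all Ngn3KO glucagon cells and to 5628 in the Gip-negative ones. Median insulin in Ngn3KO was 104.5 against 101.6 CPM for Gal, 105.9 against 100.8 for Cartpt and 78.5 against 103.1 for Cck. In Neurod1OE Iapp alone gave 3216 of the 3738 CPM of the beta-cell list in set 2 and 3160.0 of 3944 in set 3. Median insulin in set 3 was higher in positive cells, at 81.6 against 0 CPM for Gal, 93.6 against 0 for Cartpt and 93.6 against 6.41 for Cck. In Neurod1OE of set 2 it was 92.6 against 71.9 for Cartpt and 23.7 against 75.1 for Cck. Endothelial markers were at or below 0.860 CPM and immune markers at or below 8.24 CPM in sum.

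Cells outside the glucagon class show how far the peptides reach. Among the acinar cells of set 3 Gal was positive in 3 of 15 Neurod1OE and 4 of 29 Ngn3KO cells, with a highest value of 448 and 437 CPM. Those cells had between 3.80 and 56.6 CPM of Gcg, so their Gal reads do not come with glucagon reads. Several of them held other hormones: the 3 Neurod1OE cells had 133277 and 13944 CPM of Pyy and 8275 CPM of Ghrl, and 1 of the 4 Ngn3KO cells had 6035 CPM of Pyy. In the other 3 Ngn3KO cells Pyy was at or below 21.2 CPM and Ghrl at or below 269 CPM. Cartpt was positive in 0 of 15 and 0 of 29 acinar cells, Cck in 1 of 15 (a cell with 61189 CPM of Pyy and 13518 of Ghrl) and 0 of 29, and Gip had no read in either. Reads at low level were common in them: Cartpt was detected in 80% and Cck in 73.3% of the 15 Neurod1OE acinar cells, and in 46.7% and 33.3% once thinned. Detection of a single read is therefore not taken as expression here. The 48 other Neurod1OE cells of set 3 had Cartpt positive in 7, Cck in 3 and Gal in 3. Of these the cell numbered 34 was positive for Cartpt (781 CPM), Gal (533) and Cck (110.3), with 66866 CPM of Ghrl and 28.7 of Gcg.

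Receptors of the peptides were mostly low in glucagon cells. Gipr, the GIP receptor, stood at 40.6 and 39.4 CPM in Neurod1OE and Ngn3KO of set 2 and was read in 79.6% and 71.3% of cells. Galr1, a galanin receptor, stood at 8.67 and 7.49 CPM and was below the limit for measured genes, as were Galr2 and Cckbr. Cckar, the cholecystokinin A receptor, was lower in Ngn3KO (17.1 against 3.82 CPM, −1.91 on the log2 scale), was read in 10.6% and 6.44% of cells, and had opposite signs in the Gm12338 classes (2.31 in positive and −5.09 in negative cells). Acinar markers moved with it, 5 of 5 measured of 11 listed being past 2-fold lower in Ngn3KO (median −2.00; the list summed to 531.9 against 112.5 CPM), with Ctrb1, the chymotrypsinogen gene, at 1.31 and −6.51 in the classes. Their part in the Cckar value was not tested. Of the receptor list 5 of 6 genes were in the matrices and 2 were measured, with 1 past 2-fold lower and 0 higher. For this and the acinar list, the shares over all 10022 measured genes were 1.72% lower and 0.838% higher.

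Of the enzymes that make peptides from precursors, Cpe, Pcsk2 and Pam were read in every glucagon cell of set 2. All 10 processing genes were measured in set 2 and none was past 2-fold apart between the genotypes, with a median log2 value of −0.03 against −0.07 over all measured genes. Few genes were past 2-fold in that contrast, 0.838% higher and 1.72% lower of 10022. Cpe, the carboxypeptidase that trims cut precursors, stood at 2375 and 2358 CPM, Pcsk2, a prohormone convertase, at 2160.0 and 2097 CPM, and Pam, the amidating enzyme, at 1689 and 1880.3 CPM. Pcsk1, the convertase that gut endocrine cells use, was lower, at 98.7 and 92.9 CPM, and was read in 79.6% and 76.7% of cells. Qpct, which cyclizes glutamine at peptide ends, was read in 45.1% and 40.1%. Pcsk1n, a granule protein that inhibits Pcsk1, stood at 479 and 411 CPM.

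Several other gut hormones stood above the 4 peptides in set 2. Of 9 gut hormone genes on the list 7 were measured in glucagon cells of set 2, 2 of them past 2-fold higher in Ngn3KO and 0 lower, with a median of 0.35. Over all 10022 genes measured there, 0.838% were higher and 1.72% lower. Besides Gcg and Pyy (14348 and 12369.8 CPM), Ppy stood at 1558 and 1453 CPM. Gast, the gastrin gene and the closest relative of Cck, stood at 876 and 1185 CPM, and Sct, the secretin gene, at 628 and 602 CPM, both read in every glucagon cell of set 2. In Neurod1OE of set 3 Gast stood at 133.3 CPM, below Cck, Cartpt and Gal. The 2 higher genes were Ghrl (530.1 and 1177 CPM, 1.15) and Sst, somatostatin (10.4 and 277 CPM, 4.60). Sst had 4.52 in Gm12338-positive and −0.18 in negative cells, and reached 100 CPM in 3.54% and 4.95% of cells, so few cells carried its sum. Beta-cell markers moved with it in the same comparison, with 4 of 7 measured past 2-fold higher and Ins2 at 4.45 (152.1 and 3341 CPM). These 4 (Ins1, Ins2, Slc2a2 and Nnat) stood at 2.92 to 4.62 in Gm12338-positive cells and at −0.06 to 0.79 in negative ones. The Ngn3KO cell with 147505 CPM of insulin lies in the positive class. The part of beta-cell markers in the Ghrl and Sst values was not tested.

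Few brain neuropeptides joined Gal and Cartpt. Of 36 listed genes 35 were in the matrices and 5 were measured in set 2, with 2 past 2-fold higher in Ngn3KO, 0 lower and a median of 0.14. Among all 10022 genes measured in set 2 glucagon cells, 0.838% were higher and 1.72% lower. Nucb2, the nesfatin precursor, stood at 55.1 and 60.6 CPM, Pomc, the melanocortin precursor, at 26.6 and 23.8 CPM, and Ucn3, urocortin 3, at 18.5 and 14.9 CPM. The higher ones were Npy, neuropeptide Y (7.45 and 231 CPM, 4.78), and Pnoc, the nociceptin precursor (6.51 and 14.2 CPM, 1.02). Npy stood at 6.11 in Gm12338-positive and 0.90 in negative cells, and it reached 100 CPM in 0.885% and 3.96% of cells.

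Regulators and sensors of gut endocrine cells held no gene past 2-fold between the genotypes within glucagon cells of set 2. Of 24 transcription factors 18 were measured and 0 were past 2-fold in either direction, with a median of −0.01. That is near the share over all 10022 measured genes, of which 0.838% were higher and 1.72% lower. Isl1 (846 and 749 CPM), Pax6 (660.3 and 622), Etv1 (625 and 624) and Neurod1 (336 and 293) were the most abundant. Of 10 nutrient-sensing genes 5 were measured and 0 were called, with a median of −0.08. Gpr119, a lipid receptor of incretin cells, stood at the limit within glucagon cells (60.3 and 121.4 CPM) and at 1.03 over all set 2 cells, where it counts as past 2-fold. Abcc8, the regulatory subunit of the beta- and alpha-cell potassium channel, stood at 476 and 449 CPM, Ffar4, a fatty acid receptor, at 64.6 and 65.2, and Gpr142 at 56.2 and 49.4.

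The genes most like each member were sought among 9548 genes, by the mean of Pearson's r of log2(CPM + 1) within all cells of each of the 3 large groups, which share library and depth. For Cck these were Ttr, transthyretin (0.36), Sct (0.34) and Gpx3 (0.32). For Cartpt they were Ttr (0.39), Gal (0.34), Pcsk1n (0.34), Gpx3 (0.34) and Bsg (0.34), and for Gal Sct (0.37), Apom (0.35), Plac1 (0.35), Slc12a7 (0.35) and Cartpt (0.34). No gene reached 0.3 for Gip, the first being Ins1 at 0.29. These values are low, and the set 3 group, which mixes glucagon and acinar cells, gave the highest ones, such as 0.58 for Cartpt with Gal against 0.28 and 0.16 in set 2. Within glucagon cells alone, Cartpt with Gal stood at 0.62 in set 3, against 0.24 and 0.15 in Neurod1OE and Ngn3KO of set 2.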

How the data were processed

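RNA of 447 single cells was measured by Smart-seq3. The authors deposited raw read counts per gene and cell as whole numbers in a matrix per title set, without normalization. Per the submitters' processing notes, Trimmomatic 0.39, HISAT2 2.1.0, featureCounts 2.0.0 and the mm10 build were used. The annotation and strand setting used, any counting of molecule barcodes and any filter applied to cells are not given in the sources used here. Reads without molecule barcodes are not independent molecules, so intervals cover counting error only. No cell name occurred more than once. The 92 spike-in rows were left out of every total. All cells had at least 1000 detected genes, so that limit removed 0, and wells with more than 1 cell were not searched for, since cells were sorted singly. Set 2 held 117 Neurod1OE cells (113 glucagon cells) and 205 Ngn3KO cells (202 glucagon cells).

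Counts were summed over cells and expressed as CPM of the plain total. Ratios are log2 of CPM + 1, Ngn3KO over Neurod1OE within a set. Measured genes had 10 CPM or more, and reads in 10% of cells or more, in 1 of the groups compared, and were called higher or lower past 2-fold. On simulated counts the calls recovered most of the changes put in, which were larger than the 2-fold limit. Changes near 2-fold, or resting on single cells, were not simulated, so calls of that kind are not checked by it. TMM factors came from edgeR 4.0.16 and size factors from DESeq2 1.42.0, used for scaling only. Cells were called male or female by 10 CPM of Y-linked genes or of Xist, one without the other. Python 3.11.15 with numpy 2.4.6, scipy 1.17.1, pandas 2.3.3 and matplotlib 3.10.9, and R 4.3.3, were used. Alternatives covered scaling, pseudocounts, thresholds, depth, single cells and subsets of cells.

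The members and gene lists were chosen with earlier results of these data known. Named genes were the 4 members, up to 4 genes of highest level and every measured gene past 2-fold per list, and up to 5 genes most like each member, a mean r below 0.3 being called no likeness. Galr1, Galr2, Cckbr, Gpr119 over all cells and the single cells described were chosen after their values were seen. Some genes of the marker lists are not reported here.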

Additional observations from a re-analysis of the deposited data

Results flagged for a closer look

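Cck and Cartpt moved in opposite directions between the title sets. Over all cells the Ngn3KO over Neurod1OE value on the log2(CPM + 1) scale was 1.61 in set 2 and −3.93 in set 3 for Cck, and 1.17 and −5.78 for Cartpt. Gal stood at 0.20 in set 2 and −2.23 in set 3. The difference between the sets was not tested, since each genotype within a set is 1 sample. In set 3, 29 of the 30 cells labelled Ngn3KO were acinar by Cpa1.

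Gip differed in sign between the Gm12338 classes of set 2 glucagon cells, at 1.30 in the positive and −0.54 in the negative class. Without the top cell of each genotype it stood at 1.72 and 0.23, so that the signs no longer differed. This difference was not tested either, and it rests on the 5 Gip-positive glucagon cells of set 2, of which 3 are Ngn3KO cells of the positive class.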

How the results depend on the processing

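The limits are these. There is 1 sample per genotype and set, no named animal, and 1 Ngn3KO glucagon cell in set 3. In set 2 sex differs between the genotypes, and fully so among Gm12338-positive cells with a called sex. Shares depend on the threshold, and ratios of Cck, Cartpt and Gip depend on single cells. No paired analysis was possible because the numbers in the titles only name cells and no result comes from a test. A share of 0 does not mean absence: for at least 2 peptides in Gm12338-positive Ngn3KO glucagon cells its interval reaches 3.42%.

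Groups below are Neurod1OE of set 2, Ngn3KO of set 2 and Neurod1OE of set 3, in that order. With a peptide threshold of 10 CPM the positive share was 28.3%, 20.3% and 53.1% for Cck, 37.2%, 47% and 75% for Cartpt, and 54%, 52% and 81.2% for Gal. For Gip it was 8.42% in Ngn3KO and 21.9% in set 3. The share with at least 2 peptides was then 32.7%, 38.6% and 75%. With 1000 CPM the shares were 0%, 0.99% and 3.12% for Cck, 0.885%, 3.47% and 21.9% for Cartpt, 0.885%, 0.99% and 12.5% for Gal, 0% for Gip in each, and 0%, 0.495% and 12.5% for at least 2 peptides. Without cells holding a second hormone no Gip-positive Ngn3KO cell was left (0%).

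In Gm12338-positive cells alone the positive share was 4.26% for Cartpt in Neurod1OE, and 2.83%, 7.55% and 17% for Cck, Cartpt and Gal in Ngn3KO. At least 2 peptides then stood in 2.13% and 0% of cells. In Gm12338-negative cells the Ngn3KO shares were 15.6%, 27.1%, 30.2% and 0% for Cck, Cartpt, Gal and Gip, and 19.8% for at least 2 peptides.

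For the log2 ratio in set 2, over all cells, Cck reversed to −0.30 in Gm12338-positive cells and stood at 2.00 in negative ones. Cartpt stood at 0.55 and 1.40, Gal at −0.37 and 0.69 and Gip at 1.36 and −0.56. The cause was not tested. With each cell weighted equally Cck, Cartpt and Gal gave 1.23, 0.77 and −0.03. Without the top cell of each genotype Cck, Cartpt and Gip gave 0.84, 0.75 and 0.33. With a pseudocount of 10 CPM they gave 1.39, 1.09 and 0.59. In glucagon cells Cck gave 0.52. TMM scaling gave 1.23 for Cartpt and 0.26 for Gal, and DESeq2 size factors 1.23 and 0.25.

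In set 3, Cck, Cartpt and Gal gave −3.48, −5.34 and −1.75 with TMM, −3.39, −5.25 and −1.65 with DESeq2 size factors, −2.89, −4.46 and −2.00 with a pseudocount of 10 CPM, and −4.36, −6.21 and −2.67 in male cells. Without the top cells Cck and Gal gave −5.16 and −2.42, and with equal weights Cartpt gave −6.28. All stayed past 2-fold lower. With no filter on low genes the count past 2-fold higher in set 2 was 460 in place of 86, and 624 were lower in place of the 1.67% of measured genes. In set 3, 624 higher and 3332 lower genes became 1300 and 2018 with TMM, 1488 and 1836 with DESeq2, and 1121 and 5634 with no filter.

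Under thinning, totals without hormone reads, a Gcg limit of 10000 CPM and a minimum of 3000 genes, each value run stayed within its counting interval.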
